A study of Arabidopsis thaliana with 12 samples.

Results

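Glycosyl hydrolase family 9 class B endoglucanases of Arabidopsis thaliana were read here by 4 probes that name 1 gene each: GH9B8 (AT2G32990), GH9B11 (AT2G44560), GH9B12 (AT2G44570) and GH9B16 (AT4G38990). They are 4 of 3439 probes on the array and 4 of the 692 that name 1 gene. The family was selected on the measured differences between mak3 and wild type in these same arrays, and its single-gene probes were then taken. Every mak3 minus WT value of the members is therefore given as a description, with no test. The arrays held total RNA of mak3, a mutant impaired in a cytoplasmic N-acetyltransferase, and of wild type (WT), both of ecotype Columbia 0. Each genotype had 6 arrays, numbered 1 to 6. The labels name no tissue, plant age or growth condition, so the members could not be set against a tissue.

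Plant endoglucanases of family 9 cut the beta-linked glucan chains of cell walls. Those of class A are anchored in membranes, as is KORRIGAN, which is needed for making cellulose. Those of class B have a catalytic domain alone and are secreted into the wall, and class B enzymes have been linked to cell expansion, organ abscission and fruit softening. Those of class C carry an added carbohydrate-binding module. MAK3 is the catalytic subunit of an N-terminal acetyltransferase, which acetylates the first residue of proteins. GH9B9, GH9B10, GH9B11 and GH9B12 are neighbouring genes in the genome, as are GH9B16, GH9B17 and GH9B18, while GH9B8 has no family neighbour among the genes read here.

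The values are deposited intensities on a linear scale of unknown centre, from 0 to 100 with an array mean between 0.946 and 1.05. The array medians went from 0.420 to 0.605, so the arrays were quantile-normalized, low values were set to a floor of 0.0412 (-4.60 on the log2 scale) and log2 was taken. Within a genotype, arrays with neighbouring numbers (1-2, 3-4 and 5-6) deviated together from the genotype mean over all probes and were averaged. That leaves 3 samples per genotype, named here by these pairs. Nothing in the labels says that these came from separate plants, so the spread between them may be technical. The labels do not say whether the RNA came from whole tissue. If it did, fewer cells of a type and less RNA per cell cannot be told apart. Which member is the most abundant transcript cannot be read from these values, because probes differ in how strongly they bind. Names are a limit too: 2 probes carried the same annotation in 92 cases, 91 of them with several genes. Across these cases their mean log2 levels correlated only at Spearman's rho = 0.124, and their mak3 minus WT differences at 0.151.

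GH9B11 varied least between samples of the 4 members and was lower in mak3 in each pair. Its log2 normalized intensity was -0.66, -0.57 and -0.70 in the mak3 samples of pairs 1-2, 3-4 and 5-6, against -0.51, -0.34 and -0.50 in the WT samples. The highest mak3 sample lay below the lowest WT sample. The mean difference was -0.19 ± 0.04 on the log2 scale (SD of 3 pair differences), a ratio of 0.875. By pair it was -0.15, -0.23 and -0.20, so the pairs differed from each other by less than the size of the difference. The single arrays overlapped: mak3 array 4 read -0.53 and WT array 2 read -0.61. The deposited intensities went from 0.479 to 0.716 with a median of 0.608 on mak3 arrays, and from 0.709 to 0.885 with a median of 0.777 on WT arrays.

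GH9B16 was also lower in mak3 in each pair, by amounts that varied more. Its log2 normalized intensity was -1.22, -1.34 and -0.78 in the mak3 samples, against -1.10, -0.78 and -0.49 in the WT samples of pairs 1-2, 3-4 and 5-6. The mak3 sample of pair 5-6 was as high as the WT sample of pair 3-4, so the genotypes overlapped across pairs while they did not within a pair. The mean difference was -0.33 ± 0.22 on the log2 scale (SD of 3 pair differences), a ratio of 0.798, with -0.13, -0.56 and -0.29 by pair. As deposited, before any normalization, the 6 mak3 arrays went from 0.361 to 0.474 and the 6 WT arrays from 0.494 to 0.814. On that scale no mak3 array reached a WT array, which held for 2.53% of all probes. The deposited scale also carries the lower medians of the mak3 arrays in pairs 3-4 and 5-6.

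GH9B8 was the dimmest member and the one that varied most between pairs. Its log2 normalized intensity was -3.62, -2.24 and -1.73 in the mak3 samples, against -2.82, -1.97 and -1.79 in the WT samples of pairs 1-2, 3-4 and 5-6. In both genotypes pair 1-2 was far below the other pairs. The mean difference was -0.34 ± 0.44 on the log2 scale (SD of 3 pair differences), and it came mostly from pair 1-2: the values by pair were -0.81, -0.27 and 0.06. Without both samples of pair 1-2 it was -0.11, and without the mak3 sample of pair 1-2 alone it was 0.21. With the floor at the 5th percentile of the positive values, which lifts the lowest readings, it was -0.07. The difference of GH9B8 therefore has no settled size, and its sign changed when 1 sample was left out.

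GH9B12, the gene next to GH9B11, had a mean difference next to 0. Its log2 normalized intensity was -1.54, -0.90 and -1.07 in the mak3 samples, against -1.79, -0.91 and -0.79 in the WT samples of pairs 1-2, 3-4 and 5-6. The pairs went in opposite directions, with 0.25, 0.02 and -0.28, so the mean of -0.00 ± 0.27 on the log2 scale (SD of 3 pair differences) hides values of either sign. It was -0.13 without pair 1-2, 0.13 without pair 5-6, -0.32 without the WT sample of pair 1-2 and 0.18 without the WT sample of pair 5-6. The repeat arrays of this probe also differed most: those of the mak3 sample of pair 1-2 lay 0.71 apart, at -1.19 on array 1 and -1.90 on array 2. That gap is larger than any of the pair differences of GH9B12.

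**Figure D1:**
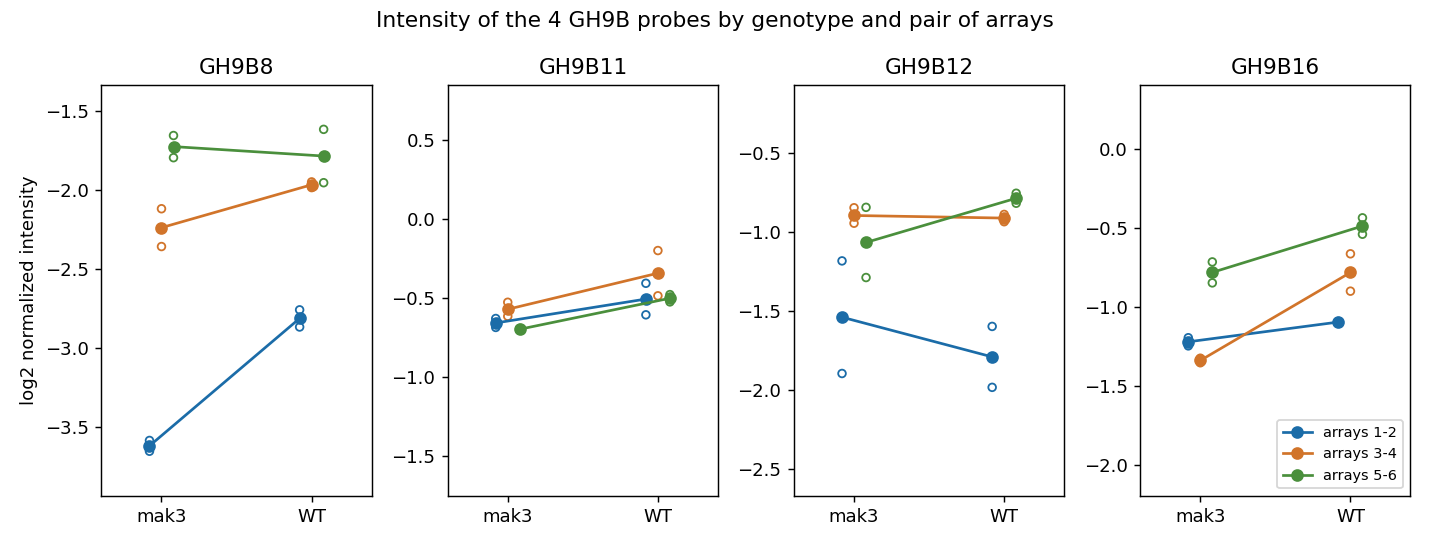
Log2 normalized intensity of each GH9B probe in mak3 and WT, with open circles for single arrays, filled circles for the mean of a pair of arrays and a line joining the samples with the same numbers. All panels span the same log2 range; GH9B11 lies within a narrow band, while GH9B8 is much lower in pair 1-2 than in the other pairs in both genotypes.

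All 4 members were lower in mak3 on average, as were 53.3% of all probes, but the value of GH9B12 was next to 0. The members GH9B11 and GH9B16 were lower in all 3 pairs, as were 20.2% of all probes. For GH9B11 all 3 mak3 samples lay below all 3 WT samples, as for 4.07% of all probes. The family was chosen by this contrast, so nothing is read from these counts. As background, limma gave an adjusted p under 0.05 for 0 of all 3439 probes (0%), and a fit that took the pair number as a block also called 0 (0%). Without adjustment, 135 probes (3.93%) had p under 0.05 in the first fit and 462 (13.4%) in the blocked one.

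The median difference of the 4 members was -0.26 on the log2 scale, against 0.00 for all probes. For pairs 1-2, 3-4 and 5-6 the members had medians of -0.14, -0.25 and -0.24, while the medians of all probes were within 0.01 of 0. As deposited, the medians of the members were -0.11, -0.44 and -0.75 in these pairs, against 0.02, -0.15 and -0.44 for all probes. The deposited differences of GH9B12 were 0.29, -0.18 and -0.80 by pair, in the same order as its normalized ones and further apart. For GH9B8 they were -0.71, -0.47 and -0.53, and for GH9B16 -0.12, -0.72 and -0.80. For GH9B11 they were -0.10, -0.41 and -0.70, so the differences of that gene were uneven on the deposited scale.

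**Figure D2:**
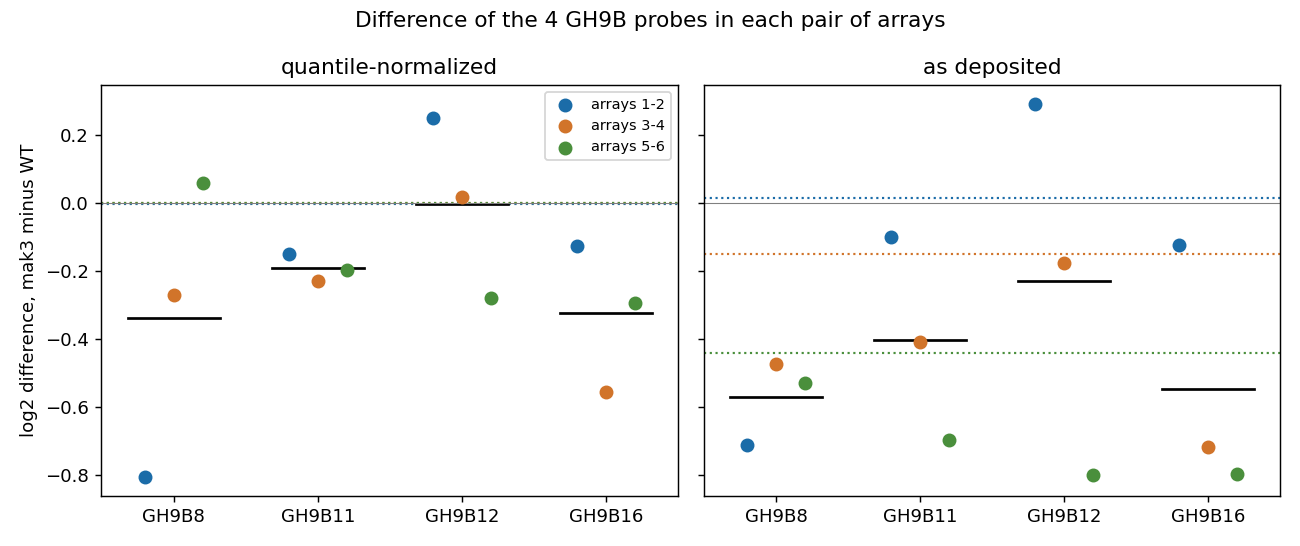
Log2 difference of mak3 minus WT in each pair of arrays (coloured points) with the mean of the 3 pairs (black bars), after quantile normalization on the left and as deposited on the right; dotted lines are the median of all 3439 probes in the pair of the same colour. After normalization the points of GH9B11 lie between -0.23 and -0.15, while those of GH9B8 spread from -0.81 to 0.06.

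The pairs themselves differed more than the genotypes for 3 of the 4 members. Averaged over mak3 and WT, GH9B8 went from -3.22 in pair 1-2 to -2.10 in pair 3-4 and -1.76 in pair 5-6, a range of 1.46 on the log2 scale against a genotype difference of size 0.34. That range is above those of 95.4% of the 3249 probes that stayed above the floor. GH9B12 had a range of 0.76 and GH9B16 of 0.52, close to the median of 0.57 over these probes. GH9B11 had a range of only 0.14, below its genotype difference of size 0.19, and 95.6% of the probes above the floor had a range at least as large. A range over pairs larger than the genotype difference was the usual case, found for 87.0% of these probes. The median gap between repeat arrays of 1 sample was 0.12 for GH9B8, 0.07 for GH9B11, 0.24 for GH9B12 and 0.08 for GH9B16, against 0.10 over these probes. The largest gaps were 0.34 for GH9B8, 0.29 for GH9B11, 0.71 for GH9B12 and 0.24 for GH9B16. For GH9B11 the gaps of the WT samples of pairs 3-4 and 1-2, at 0.29 and 0.20, were larger than its genotype difference of size 0.19 and than its range over pairs.

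The members also differed in the brightness of their spots. GH9B8 was brighter than 5.79% to 23.6% of the probes on mak3 arrays and than 8.23% to 24.6% on WT arrays. GH9B11 was brighter than 57.5% to 64.8% on mak3 arrays and than 61.5% to 77.1% on WT arrays. GH9B12 and GH9B16 lay between them on average and overlapped, at 18.4% to 51.4% and 32.3% to 57.0% on mak3 arrays, and at 16.8% to 55.2% and 41.4% to 68.5% on WT arrays. By mean log2 intensity the order was GH9B11, GH9B16, GH9B12 and GH9B8 in mak3, at -0.64 ± 0.06, -1.11 ± 0.29, -1.17 ± 0.33 and -2.53 ± 0.98 (SD, n = 3). The order in WT was the same, at -0.45 ± 0.09, -0.79 ± 0.30, -1.17 ± 0.55 and -2.19 ± 0.55 (SD, n = 3). By these means GH9B16 and GH9B12 were closest in mak3, and GH9B11 and GH9B16 in WT. The ranges over samples of GH9B16 and GH9B12 overlapped in both genotypes, and those of GH9B11 and GH9B16 in WT. Sample by sample, GH9B16 was above GH9B12 in all 3 WT samples, while in mak3 it was above in pairs 1-2 and 5-6 and below in pair 3-4. GH9B11 was above GH9B16 in every sample but the WT sample of pair 5-6, where GH9B16 read -0.488 and GH9B11 -0.501. The order is one of spot brightness, not of transcript abundance.

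Another 7 probes name genes of the family, each naming several, and 1 of these also names a gene outside it, AT3G42155. The probe naming GH9C2 and GH9C3 has class C genes only. All 7 were lower in mak3 on average, as were 53.3% of all probes. The family was chosen by this contrast, so nothing is read from this count. The differences of the 7 went from -0.34 to -0.04, the last for GH9C2 and GH9C3, with a median of -0.23. Of the 7, only the probe naming GH9B16, GH9B17 and GH9B18 was lower in all 3 pairs, with -0.44, -0.22 and -0.01, so its largest value was in pair 1-2, where the GH9B16 probe had its smallest. The probe naming GH9B9 to GH9B12 was at 0.03, -0.46 and -0.27, and the one naming GH9B9 and GH9B10 at 0.02, -0.67 and -0.38. Over the 6 samples, which share genotypes and pairs, the probe of GH9B11 correlated with that of GH9B9 to GH9B12 at r = 0.82 and the probe of GH9B12 at -0.02. The probe of GH9B16 correlated with the one naming GH9B16 to GH9B18 at r = 0.54. How far related transcripts bind to each other's probes was not tested. The 2 probes that both name GH9B14 and GH9B15 had differences of -0.31 and -0.13 and mean levels in mak3 of -2.87 and -1.27, against -2.56 and -1.14 in WT, so probes of 1 name did not share a level.

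**Figure D3:**
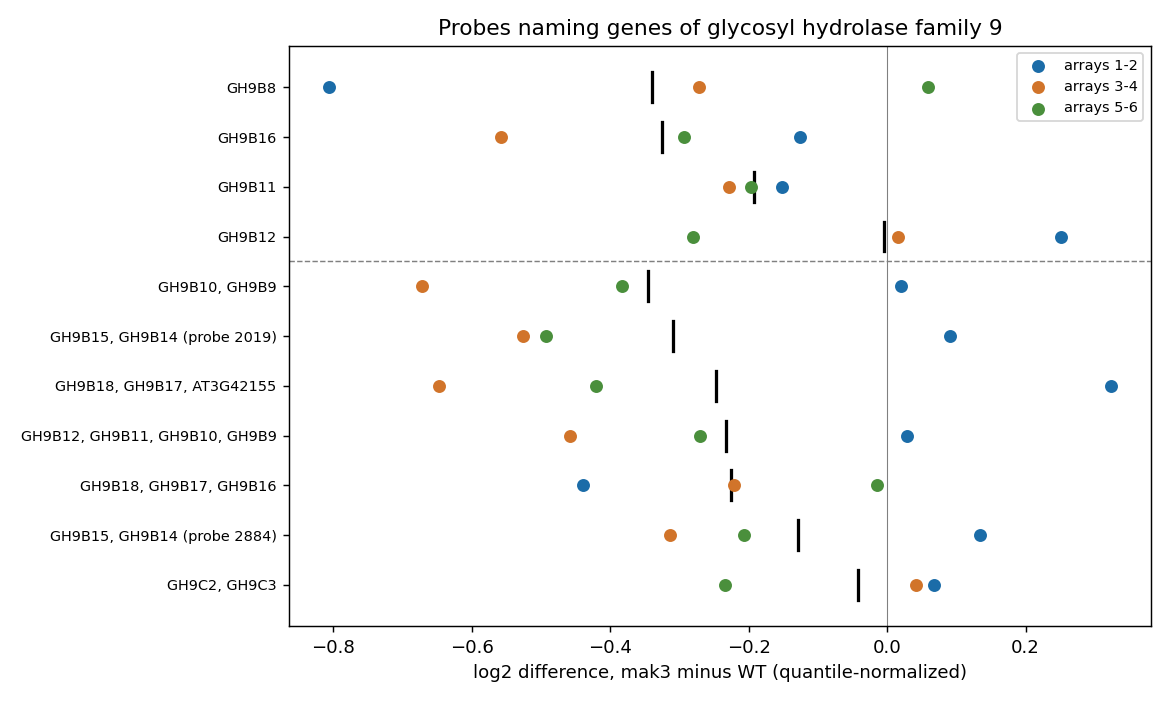
Log2 difference of mak3 minus WT for the 11 probes that name genes of glycosyl hydrolase family 9, with a coloured point for each pair of arrays and a black bar at the mean; the 4 probes above the dashed line name 1 gene, and those below it several. The bars of all 11 probes lie below 0, as did the mean difference of 53.3% of all probes. Pair 1-2 is above 0 for 6 of the 7 probes with several genes.

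Among themselves the members were only partly alike over the 6 samples. GH9B8 and GH9B12 had the highest Pearson's r, at 0.78, followed by GH9B8 and GH9B16 at 0.68 and GH9B12 and GH9B16 at 0.49. GH9B11 stood lower with each of the others, at 0.28 with GH9B8, 0.25 with its neighbour GH9B12 and 0.31 with GH9B16. The 6 points share genotype and pair, so these values describe the samples and carry no test.

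Of 643 other single-gene probes above the floor, those most like GH9B8 over the 6 samples were CUTA (AT2G33740) at r = 0.98 and AT1G21660 at 0.97. GH9B12 was most like AT2G46300 and AT2G47390, both at 0.99, and GH9B16 was most like AT4G08280 at 0.97 and AT3G44810 at 0.96. For GH9B11 the nearest were AT4G35980 and AT2G39670, both at 0.92. The number of probes above r = 0.9 was 29 for GH9B8, 28 for GH9B12, 26 for GH9B16 and 3 for GH9B11. These are the same 6 points, which share pairs and genotypes, and the values are given as a description.

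Each member was also set beside the probes whose probe numbers lay within 12 of its own. Probe numbers were used, not spot positions. The sets around GH9B11, GH9B12 and GH9B16 hold other probes of the family. GH9B11 and GH9B12 are 12 numbers apart. The median difference of those neighbours by pair was -0.02, -0.17 and -0.05 around GH9B11, and -0.10, -0.04 and -0.12 around GH9B12. It was -0.01, -0.20 and -0.03 around GH9B8, and -0.21, -0.06 and 0.09 around GH9B16. With the neighbours' median taken off each sample, GH9B8 was at -0.36, GH9B11 at -0.17, GH9B12 at -0.08 and GH9B16 at -0.24. All 4 kept their sign and their order, and GH9B16 moved most.

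Other genes of the cell wall were looked up among the single-gene probes by a fixed list of symbols, which does not cover all such genes. Of the listed cellulose synthase, cellulose synthase-like, xyloglucan hydrolase and expansin genes, 1 had such a probe, CSLA01 (AT4G16590), a member of the cellulose synthase-like A family, whose enzymes make mannan. It did not pass in limma, with 0.07 on average and 0.29, -0.50 and 0.43 by pair, at mean log2 levels of -1.45 in mak3 and -1.52 in WT. Markers of green tissue, summed over 7 probes on the linear normalized scale, went from 36.5 to 45.3 in mak3 samples and from 40.0 to 55.6 in WT samples, and overlapped. That sum is mostly the bright probes of PSBW and LHB1B2, and single markers went both ways: 4 of the 7 were lower in mak3 on average, among them PSAN at -0.42 and LHB1B2 at -0.36, and 3 were higher, among them PSB27 at 0.36 and PSBY at 0.10. The 2 reproductive regulators SAP and DME summed to 0.759 to 0.774 in mak3 and to 0.615 to 0.686 in WT, and did not overlap. Of all 3439 single probes, 110 had every mak3 sample above every WT sample. The markers of green tissue and the reproductive regulators were both listed with earlier results of these data known. Nothing is therefore read from the overlap of the green sums, the directions of single markers or the separation of SAP and DME. None of these markers was at 0 on any array, and their part in the values of the members was not tested.

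**Figure D4:**
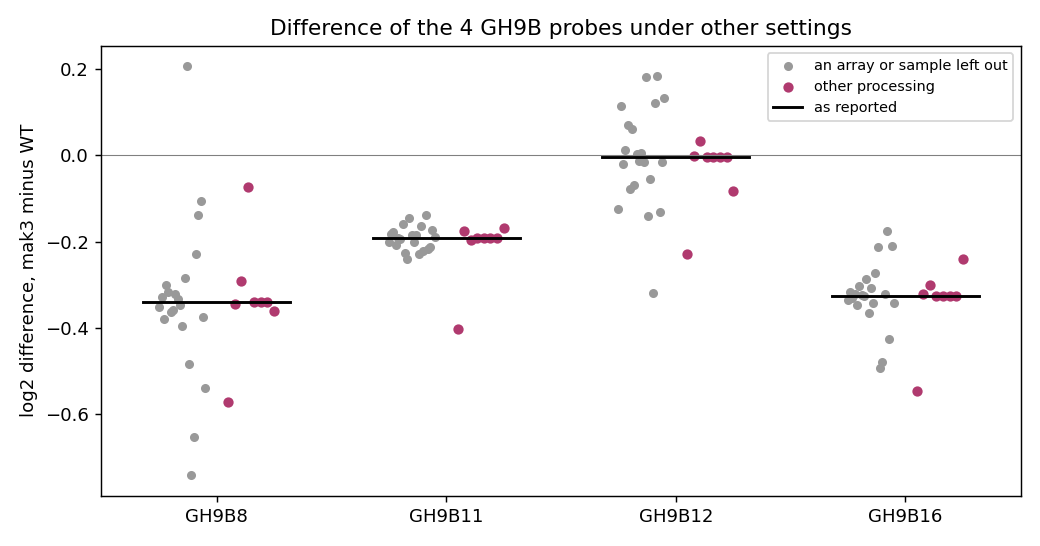
Log2 difference of mak3 minus WT for each GH9B probe as reported (black bars), with an array or sample left out (grey points) and with other processing (pink points). GH9B11 and GH9B16 stayed below 0 in every setting run, while GH9B8 and GH9B12 lay on both sides of 0. Some of the settings cannot change the difference of the means.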

How the data were processed

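Total RNA of mak3 and WT plants was read on 12 arrays. The values used are the intensities the authors deposited, with 1 for each array and probe. Scanning, background correction and scaling were not given in the sources used here. Genotype and array number come from the labels, and probe names from the annotation of the platform, with symbols updated by gene ID. The precision is limited by the number of arrays.

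Arrays were quantile-normalized, values under the 1st percentile of the positive values were set to it (167 on each array), and log2 was taken. Arrays 1-2, 3-4 and 5-6 of a genotype deviated together from the genotype mean (r = 0.758 to 0.883, at most -0.0645 for others) and were averaged. All probes were fitted with limma 3.58.1 in R 4.3.3 (lmFit, eBayes, two-sided, Benjamini-Hochberg). Same-numbered mak3 and WT samples deviated together (r = 0.602, 0.557 and 0.739), so the numbers pair them, as judged from the data. The fit was also run on simulated data, drawn without the pairing of the samples. It missed many of the smaller changes put in and some of the larger ones. A count of 0 calls therefore does not show that no probe changed.

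The members, lists and tests were chosen with earlier results of these data known. Named genes are the members, the family's other probes, the 2 single-gene probes most correlated with each member, and cell-wall genes by symbol. The alternatives were other normalizations, floors, a filter, single arrays, the pair block, neighbouring probes and left-out arrays, samples or pairs; leaving out whole pairs was added after seeing the data. Sequences were not used here, and gene coordinates served only to find which genes of the family are neighbours.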

Additional observations from a re-analysis of the deposited data

How the results depend on the processing

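GH9B11 and GH9B16 were below 0 under all 29 alternatives, but these are not 29 independent checks. The filter, the single arrays and the pair block cannot change the difference of means of these genes. Leaving out a pair cannot change its sign, because every pair difference of GH9B11 and GH9B16 was negative. Leaving out an array keeps the other array of the same sample. The 2 did not always read alike: for GH9B11 they lay 0.29 apart in the WT sample of pair 3-4. The difference of GH9B11 was -0.24 without WT array 3 and -0.14 without WT array 4. The differences as deposited were -0.40 for GH9B11, -0.55 for GH9B16 and -0.47 for the median of the 4 members, where the median of all probes was -0.19. With the floor at the 5th percentile the median of the members was -0.13, since that floor lies above the dimmest readings of GH9B8. Cyclic loess put GH9B12 at 0.03. With arrays, samples or pairs left out, GH9B8 went from -0.74 to 0.21, GH9B11 from -0.24 to -0.14, GH9B12 from -0.32 to 0.18 and GH9B16 from -0.49 to -0.17. The median of the members then went from -0.40 to -0.0010, the last without the mak3 sample of pair 1-2. Limma called 0 probes with the replicate block and 24 with the 12 arrays as separate samples, which counts each sample more than once; every other alternative gave 0. No background reading was at hand to judge whether GH9B8 lay above it.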
